A study of Mus musculus with 69 samples.

Results

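Leukemia inhibitory factor (LIF) and the interleukins and cytokines related to it were followed from ligand to receptor to transcription factor. The RNA was newly made RNA tagged through Cre drivers of the mouse collecting duct. The genes were the rows of the deposited count table whose symbol was Lif, Il6, Il11, Clcf1, Osm, Lifr, Osmr, Il6st, Il6ra or Stat3, that is 10 of 24411 genes, and all 10 passed the filter of 2 reads summed over the 69 libraries that left 21175 genes, which were the ones tested.

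The study tagged RNA in living mice with 4-thiouracil, an analog that uracil phosphoribosyltransferase (Uprt) brings into nascent RNA, and sequenced the biotinylated, pulled-down RNA. Mice carried 1 Uprt allele at Rosa26 behind a floxed stop and were Hoxb7Cre;UPRTf/+ or, in the spelling of the labels, Atp6b1v1Cre;UPRTf/+ (Atp6v1b1Cre below). Control mice carried these alleles too and, like all mice, were injected with 4-thiouracil at 430 mg/kg 4 hours before the kidney was taken. iAKI mice were examined 24 hours after both renal pedicles had been clamped for 10 minutes. Per the study this was done by laparotomy under ketamine and xylazine, with saline given. No sham operation of controls is described, so surgery, anesthesia and ischemia cannot be told apart. vAKI mice had been kept without food and water for 72 hours, so that fasting and water loss cannot be told apart. Among male mice of 5.5 months there were 4 control, 4 iAKI and 3 vAKI libraries in Hoxb7Cre and 4, 3 and 4 in Atp6v1b1Cre. Female mice of that age gave 4, 3 and 4 libraries in Hoxb7Cre and 4, 3 and 3 in Atp6v1b1Cre. Control mice of 3 months gave 2 further female Hoxb7Cre and 3 further male Atp6v1b1Cre pulldowns. Another 21 libraries of total kidney RNA, without pulldown, came from control mice of both genotypes, sexes and ages. Total RNA replicates 14, 15, 19, 20 and 21 were from mice of 3 months and the others from mice of 5.5 months. Per the study, Hoxb7Cre marks the collecting duct, whereas Atp6v1b1Cre marks intercalated and double-positive cells and a few scattered interstitial cells. Each group therefore reads a Cre domain and not a purified cell type, and fewer cells of a type and less RNA per cell cannot be told apart in these bulk libraries.

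Cytokines of this family bind a receptor chain of their own and then share the signal-transducing chain gp130, which Il6st encodes. Janus kinases bound to these chains phosphorylate STAT3, which enters the nucleus and switches on acute phase and survival genes together with SOCS3, an inhibitor that shuts the receptor down again. In injured kidneys the pathway is known for acute phase proteins such as the fibrinogen chains and lipocalin 2 in tubules, and its ligands can be made by epithelium, stroma and leukocytes alike.

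The libraries held 12618062 to 30305464 counts, and in 69 of 69 the Xist and Y-linked counts fit the labelled sex. Summed markers of principal cells (Aqp2 and 5 others) reached 2694 to 3439 CPM (reads scaled to a common depth by TMM) in male Hoxb7Cre controls, against 668 to 1175 CPM in total RNA. Summed markers of intercalated cells (Foxi1 and 5 others) were at 551 to 1333 CPM (median 980) in the 11 Atp6v1b1Cre controls. In total RNA they were at 344 to 612 CPM (median 430), so the ranges overlapped in part. Proximal tubule RNA was present in every pulldown. Its summed markers (6 genes) were at 1574 to 4184 CPM in Hoxb7Cre controls, 1296 to 4135 in Atp6v1b1Cre controls and 7699 to 15468 in total RNA. Those of the thick ascending limb (3 genes) were at 949 to 2328, 737 to 2068 and 5596 to 10940.5 CPM. In male Hoxb7Cre pulldowns the thick limb sum was at 1780 to 2015 CPM after iAKI and 772 to 857 after vAKI, against 1335 to 2328 in controls. The part of these segments in the member values was not tested. After both injuries the principal cell sum of male Hoxb7Cre pulldowns was lower, at 1005 to 1254 CPM in iAKI and 1110 to 1213 CPM in vAKI. Some libraries stood apart from their groups, namely male Hoxb7Cre iAKI replicate 5, female Hoxb7Cre vAKI replicate 5, the Atp6v1b1Cre iAKI replicates 5 (male) and 6 (female) and female Atp6v1b1Cre vAKI replicate 5. Calls of members that changed without them are given with and without them, which was not done for other genes. The labels do not say that each library is a separate mouse, so p-values measure the spread between libraries.

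In control libraries the levels of Stat3, Lifr and Il6st were high and those of the ligands low. The paper warns that pulldowns may overrepresent uracil-rich RNA and hold nascent transcripts only. The order of genes within pulldowns is thus not an order of steady-state abundance. Per kb of exon, the order of mean levels in the 10 Hoxb7Cre controls was led by Stat3 at 47.6 ± 9.20 CPM per kb (SD), Lifr at 41.6 ± 9.99 and Il6st at 22.3 ± 6.17. Clcf1, which encodes cardiotrophin-like cytokine factor 1, had the highest level of the ligands at 2.97 ± 1.55 CPM per kb. Osmr, the oncostatin M receptor, and Il6ra, the receptor chain that binds interleukin 6, followed at 1.74 ± 0.624 and 1.34 ± 0.390. The other ligands were lower still. Il11 was at 0.617 ± 0.217 CPM per kb, Lif at 0.358 ± 0.256, Il6 at 0.0479 ± 0.0521 and Osm at 0.0188 ± 0.0190. In this order Stat3 and Lifr, Clcf1 and Osmr, Osmr and Il6ra, Il11 and Lif, and Il6 and Osm were neighbours that differed by less than the sum of their SDs. In the 11 Atp6v1b1Cre controls the means ran in the same order from Stat3 (46.3 ± 5.76 CPM per kb) through Lifr (37.8 ± 5.81), Il6st (19.8 ± 3.98), Clcf1 (3.02 ± 1.08), Osmr (3.01 ± 0.657), Il6ra (2.07 ± 0.252), Il11 (0.454 ± 0.150) and Lif (0.306 ± 0.126), with Osm (0.0835 ± 0.0499) above Il6 (0.0408 ± 0.0290). In total RNA Stat3 was at 24.2 ± 3.27 and Lifr at 19.0 ± 2.51 CPM per kb (n = 21).

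**Figure D1:**
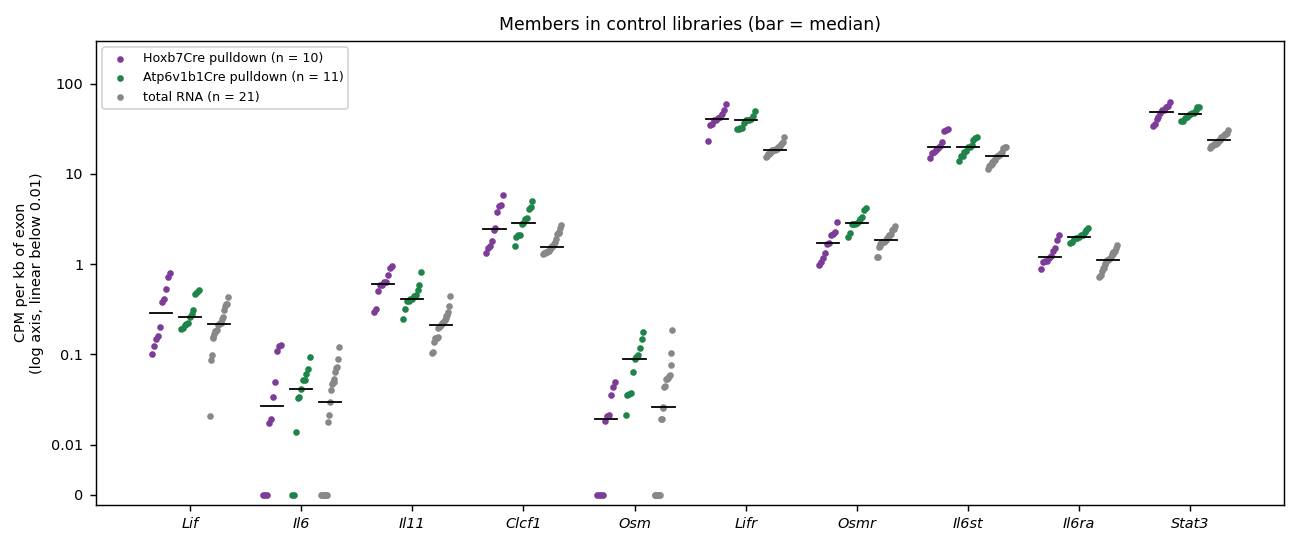
Level of each gene in CPM per kb of exon (log axis, linear below 0.01) in each control library, as points for Hoxb7Cre pulldown (n = 10), Atp6v1b1Cre pulldown (n = 11) and total kidney RNA (n = 21), with bars at the medians. Stat3, Lifr and Il6st lie far above the ligands in all 3 kinds of library, and Stat3, Lifr and Il11 lie higher in the pulldowns than in total RNA by group mean.

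Newly made RNA of the pools was compared with total RNA in the 42 control libraries, with sex as a covariate, with edgeR's quasi-likelihood test and p-values adjusted by Benjamini-Hochberg over all genes tested. Pulldown and total RNA differ both in cells (Cre domain or whole kidney) and in kind of RNA (made within 4 hours or all). These cannot be told apart here. A gene was called differentially expressed (DEG) when its adjusted p was below 0.05 and its level changed by 1 or more on the log2 scale, and "passed" means the adjusted p alone. Il11 ranged from 0.616 to 1.99 CPM (median 1.27) in Hoxb7Cre pulldowns and from 0.214 to 0.919 CPM (median 0.441) in total RNA, and its log2 fold change was 1.53 (SE 0.19, adjusted p = 8.01e-10). Interleukin 11 is a gp130 cytokine that injured epithelia and stroma can secrete, and its ranges overlapped only in part. Lifr ranged from 249 to 651 CPM (median 441) against 165 to 278 CPM (median 200.2) in total RNA, with a log2 fold change of 1.14 (SE 0.08, adjusted p = 1.06e-16). These were the 2 members called in Hoxb7Cre pulldowns, where 32.5% of all genes were called. Stat3 (0.99, SE 0.07, adjusted p = 3.92e-17), Clcf1, Il6st, Lif and Il6ra passed with smaller differences, where 66.6% of all genes passed. The median log2 fold change of the members was 0.62 beside 0.11 for all genes. In Atp6v1b1Cre pulldowns 4 members were called higher, where 27.7% of all genes were called, and the median was 0.95 beside 0.11. These were Il11 at a log2 fold change of 1.05 (SE 0.19), Lifr at 1.07 (SE 0.08), Stat3 at 1.01 (SE 0.07) and Osm at 1.12 (SE 0.43, adjusted p = 0.0228). Osm, a cytokine made largely by leukocytes, ranged from 0.0484 to 0.398 CPM (median 0.202) there and from 0 to 0.421 CPM (median 0.0601) in total RNA, and it did not pass without control replicate 13 (1.01, adjusted p = 0.0526) or 14 (0.95, adjusted p = 0.0612). Nor did Osm pass in mice of 5.5 months only (0.73, adjusted p = 0.190) or in females only (0.84, adjusted p = 0.354). Age was not a covariate of the main fit. The difference of Il11 was 0.95, 0.98 and 0.98 without Atp6v1b1Cre control replicate 9, total RNA replicate 11 and Atp6v1b1Cre control replicate 12. That of Stat3 was 0.978, 0.987, 0.996 and 0.997 without Atp6v1b1Cre control replicates 9 and 11, total RNA replicate 11 and Atp6v1b1Cre control replicate 12, in each case just under the fold threshold. Conversely, Clcf1 crossed it without Atp6v1b1Cre control replicate 8, Il6ra without Atp6v1b1Cre control replicate 7, 8, 12 or 14 or total RNA replicate 1, 2, 5 or 7, and Stat3 in Hoxb7Cre without its control replicate 1, 2 or 3 or total RNA replicate 7, 12 or 13.

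The pools themselves differed in the receptors for oncostatin M and interleukin 6. Between the control pulldowns, where 4.11% of all genes were called, Osm was called higher in Atp6v1b1Cre (log2 fold change 2.09, SE 0.57, adjusted p = 0.0102). It did not pass in males alone (1.87, adjusted p = 0.127) or females alone (2.13, adjusted p = 0.206), and a stricter filter on low counts removed it. Markers of leukocytes and stroma moved with it. The leukocyte and macrophage sum was at 129.6 to 205 CPM in Atp6v1b1Cre and 51.0 to 104.5 CPM in Hoxb7Cre controls, the T cell sum at 1.02 to 5.34 and 0.120 to 1.53 CPM, and the stromal sum at 134 to 217 and 44.2 to 102.3 CPM. Their part in the differences of Osm, Osmr and Il6ra was not tested. Osmr passed at 0.89 (SE 0.15, adjusted p = 1.23e-05) and Il6ra at 0.74 (SE 0.12, adjusted p = 1.40e-05), both under the fold threshold. The other 7 members did not pass, and for Lifr the 95% interval of the difference ran from -0.26 to 0.12 and for Stat3 from -0.14 to 0.18.

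Ischemia and volume depletion were then compared with controls in 1 fit of the 22 male pulldowns of 5.5 months. In the Hoxb7Cre domain the ligands rose after both injuries. Lif, Il6 and Clcf1 were DEGs after iAKI, and Lif, Il6, Clcf1 and Osm after vAKI. Osmr rose after both, Stat3 rose less, Lifr rose after vAKI, and Il11 and Il6st did not pass in either. Of the 10 members, 4 were called after iAKI, all higher, where 2.3% of all genes were called and 1.52% called higher. After vAKI 6 were called, all higher, where 16.4% of all genes were called and 9.61% called higher. The median log2 fold change of the members was 0.84 after iAKI and 1.26 after vAKI, beside 0 for all genes in both. At an adjusted p below 0.05 alone, 5 members passed after iAKI and 8 after vAKI, where 6.13% and 35.5% of all genes passed. Both injuries share their control libraries.

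**Figure D2:**
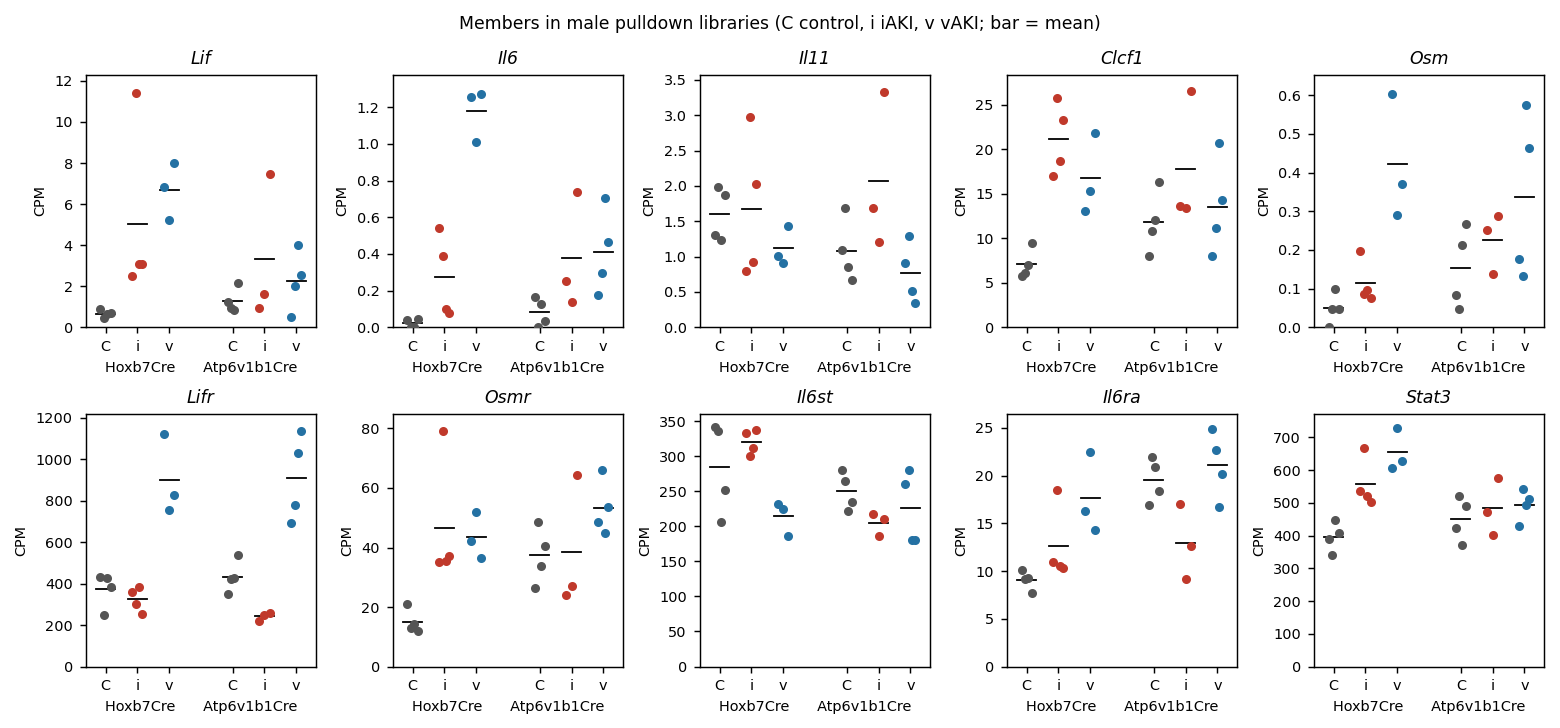
CPM of each of the 10 genes in each male pulldown library of 5.5 months (points; bar at the mean), for control (C), iAKI (i) and vAKI (v) in Hoxb7Cre and Atp6v1b1Cre. In Hoxb7Cre, Lif lies at 0.436 to 0.885 CPM in controls and 5.25 to 8.02 CPM in vAKI, and Lifr is higher in vAKI than in control in both drivers.

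Lif encodes the cytokine that signals through the LIF receptor and gp130. In the 4 Hoxb7Cre controls it was at 0.885, 0.436, 0.642 and 0.703 CPM (9 to 21 reads). After iAKI it was at 2.47, 11.4, 3.10 and 3.10 CPM, and after vAKI at 6.85, 5.25 and 8.02 CPM. Every injured library was above every control. The log2 fold change was 2.91 (SE 0.65, adjusted p = 0.00998), or 7.51-fold, after iAKI and 3.32 (SE 0.67, adjusted p = 0.000498), or 9.96-fold, after vAKI. Replicate 5 of iAKI carried the highest value, and without it the log2 fold change was 2.09 with an adjusted p of 0.0568, so the iAKI call rested on that library.

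Il6 encodes interleukin 6, the founding member of the family, and sat near the detection limit in controls, with 2 reads over 4 libraries (0.0421, 0, 0 and 0.0469 CPM). It had 24 reads in iAKI (0.544, 0.387, 0.0969 and 0.0765 CPM) and 84 in vAKI (1.26, 1.01 and 1.27 CPM). The ratio to controls at equal depth was 11.4 (95% counting interval 2.84 to 99.8) in iAKI and 50.3 (13.5 to 422) in vAKI, and these intervals cover counting error only. Both injured groups were above the controls in every library, the vAKI libraries by the wider margin. The test gave a log2 fold change of 3.28 (SE 0.97, adjusted p = 0.0462) after iAKI and 5.38 (SE 0.86, adjusted p = 4.57e-05) after vAKI. The iAKI value did not pass once any of 6 of its 8 libraries was left out, with adjusted p of 0.138 and 0.120 without iAKI replicates 4 and 5, and 0.0706, 0.128, 0.107 and 0.0695 without control replicates 2, 3, 4 and 5. Nor did it pass with no filter (3.27, adjusted p = 0.0543) or in a fit of only the groups compared (3.25, adjusted p = 0.0569).

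Clcf1 encodes a ligand of the ciliary neurotrophic factor receptor and was at 5.77, 6.05, 6.96 and 9.47 CPM in controls. It was at 17.1, 25.8, 18.6 and 23.3 CPM after iAKI and at 13.1, 15.3 and 21.9 CPM after vAKI. Again every injured library exceeded every control. Its log2 fold change was 1.60 (SE 0.29, adjusted p = 0.00256) after iAKI and 1.25 (SE 0.30, adjusted p = 0.00253) after vAKI, and it was called whichever library was left out.

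Osm, the nearest counted neighbour of Lif on chromosome 11, had 4 reads over the 4 controls and 10 over the 4 iAKI libraries (0.198, 0.0861, 0.0969 and 0.0765 CPM). In vAKI it had 29 reads (0.604, 0.289 and 0.370 CPM), a ratio to controls of 8.68 (3.05 to 34). All vAKI libraries were above all controls, which lay between 0 and 0.0988 CPM. The log2 fold change was 3.01 (SE 0.71, adjusted p = 0.00200) after vAKI and 1.18 (SE 0.81, adjusted p = 0.446) after iAKI. Il11 gave no such difference. It was at 1.31, 1.99, 1.23 and 1.87 CPM in controls, 0.791, 2.97, 0.920 and 2.03 CPM after iAKI and 1.01, 0.905 and 1.44 CPM after vAKI. Its groups overlapped, with log2 fold changes of 0.09 (95% interval -0.73 to 0.92) and -0.51 (-1.43 to 0.41).

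Lif spans chr11:4257557-4272514 and Osm chr11:4236420-4241026 of GRCm38, on the same strand and 16530 bp apart, and no other counted gene lies between them. Il6 spans chr5:30013114-30019981, Clcf1 chr19:4214238-4223490, and Il11 chr7:4772373-4782859 on the minus strand. The 250 bases before the RefSeq starts (GRCm38.p6) were searched on both strands for 4 motifs of factors known to act on this family, and 8 of the 10 members had such a window, 10 windows in all. The motifs were TGANTCA (AP-1 type, in 6.75% of 32851 such windows over all genes), a kappaB type motif (GGG, any 2 bases and TTTCC, in 1.41%), TTGCNNAA (C/EBP type, 9.56%) and TTCNNNGAA (STAT type, 7.02%), where N is any base. The stretches of Lif and Il6 are shown because these ligands rose most, and that of Socs3 because it is the feedback inhibitor measured beside them. They are printed in the direction of transcription, end before the first annotated start of the gene and have the matches in capitals.

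Lif, chr11:4257318-4257556, plus strand: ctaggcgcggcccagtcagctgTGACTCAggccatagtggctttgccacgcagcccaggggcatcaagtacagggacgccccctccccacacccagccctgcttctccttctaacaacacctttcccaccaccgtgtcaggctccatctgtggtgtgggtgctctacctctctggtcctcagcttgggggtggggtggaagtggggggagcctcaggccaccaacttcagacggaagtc

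Il6, chr5:30012864-30013113, plus strand: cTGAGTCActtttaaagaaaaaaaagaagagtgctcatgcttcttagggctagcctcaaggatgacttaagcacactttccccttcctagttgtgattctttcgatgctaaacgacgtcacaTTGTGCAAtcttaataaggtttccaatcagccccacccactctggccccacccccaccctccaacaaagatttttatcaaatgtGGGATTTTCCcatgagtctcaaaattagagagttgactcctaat

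Socs3, chr11:117969452-117969616, minus strand: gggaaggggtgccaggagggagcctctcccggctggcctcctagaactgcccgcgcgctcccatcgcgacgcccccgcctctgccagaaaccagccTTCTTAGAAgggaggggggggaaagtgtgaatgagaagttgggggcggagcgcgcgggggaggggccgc

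In Lif the capitals are the AP-1 type match TGACTCA, 228 bases before the RefSeq start. In Il6 they are TGAGTCA at 249 bases, TTGTGCAA (the C/EBP type motif read on the other strand) at 128 bases and GGGATTTTCC (kappaB type) at 44 bases. In Socs3 they are TTCTTAGAA (STAT type) at 154 bases. Il11 held TGAGTCA at 98 bases before 1 of its 2 starts. The matches of different motifs did not overlap. A match describes letters in the window, and factor binding was not measured.

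Among the receptors, Lifr moved only after vAKI in Hoxb7Cre males and Osmr after both injuries. Lifr, whose product pairs with gp130 to bind LIF, was at 431, 249, 429 and 383 CPM in controls and at 359, 302, 385 and 255 CPM after iAKI. After vAKI it was at 1121, 754 and 828 CPM. The iAKI libraries lay within the range of the controls, and the vAKI libraries lay above all of them. The log2 fold change was 1.28 (SE 0.21, adjusted p = 5.43e-05), or 2.42-fold, after vAKI, and after iAKI it was -0.19 (95% interval -0.56 to 0.19, adjusted p = 0.632). Osmr, which pairs with gp130 to bind oncostatin M, was at 20.9, 12.8, 14.3 and 12.0 CPM in controls. It was at 35.2, 79.1, 35.4 and 37.1 CPM after iAKI and at 42.2, 51.9 and 36.4 CPM after vAKI, and no injured library overlapped the controls. Its log2 fold change was 1.65 (SE 0.30, adjusted p = 0.00256) after iAKI, 1.25 (adjusted p = 0.0144) without iAKI replicate 5, and 1.54 (SE 0.31, adjusted p = 0.000549) after vAKI. Lifr (chr15:7090614-7197489, plus strand) and Osmr (chr15:6813577-6874969, minus strand) are neighbours 215644 bp apart, with no counted gene between them.

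Il6ra was at 10.1, 9.15, 9.28 and 7.69 CPM in controls, at 11.0, 18.5, 10.6 and 10.4 CPM after iAKI and at 16.3, 22.4 and 14.3 CPM after vAKI. It passed after vAKI at a log2 fold change just under the threshold of 1 (0.97, SE 0.22, adjusted p = 0.00126). After iAKI the value was 0.49 (SE 0.20, adjusted p = 0.166), although the highest control and the lowest iAKI library did not overlap. Without vAKI replicate 4, vAKI replicate 7 or control replicate 2 the vAKI value crossed the fold threshold, at 1.02, 1.10 and 1.02. Il6st, the shared gp130 chain, was at 342, 337, 206 and 252 CPM in controls, 334, 299.7, 311 and 337 CPM after iAKI and 231, 225 and 186 CPM after vAKI. Its groups overlapped, and the log2 fold change was 0.19 (SE 0.16, adjusted p = 0.562) after iAKI and -0.40 (SE 0.17, adjusted p = 0.0768) after vAKI.

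Stat3 rose modestly after both injuries. It was at 389.8, 341, 446 and 408 CPM in controls, at 537, 667, 520.4 and 502 CPM after iAKI and at 606, 730.2 and 627 CPM after vAKI. All 7 injured libraries exceeded all 4 controls. The log2 fold change was 0.50 (SE 0.14, adjusted p = 0.0364), or 1.42-fold, after iAKI and 0.73 (SE 0.15, adjusted p = 0.000652), or 1.66-fold, after vAKI, and the iAKI value was 0.39 (adjusted p = 0.156) without iAKI replicate 5. Stat3 and Stat5a overlap by 72 bp on opposite strands, so reads there are uncertain.

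Libraries of injured and control mice did not overlap for 6 members after iAKI (Lif, Il6, Clcf1, Osmr, Il6ra and Stat3), where 15.9% of all genes did not overlap, and for 8 after vAKI (these and Osm and Lifr), where 39.5% did not. All were higher after injury. The plot of fold changes sets these values beside those of the other driver.

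**Figure D3:**
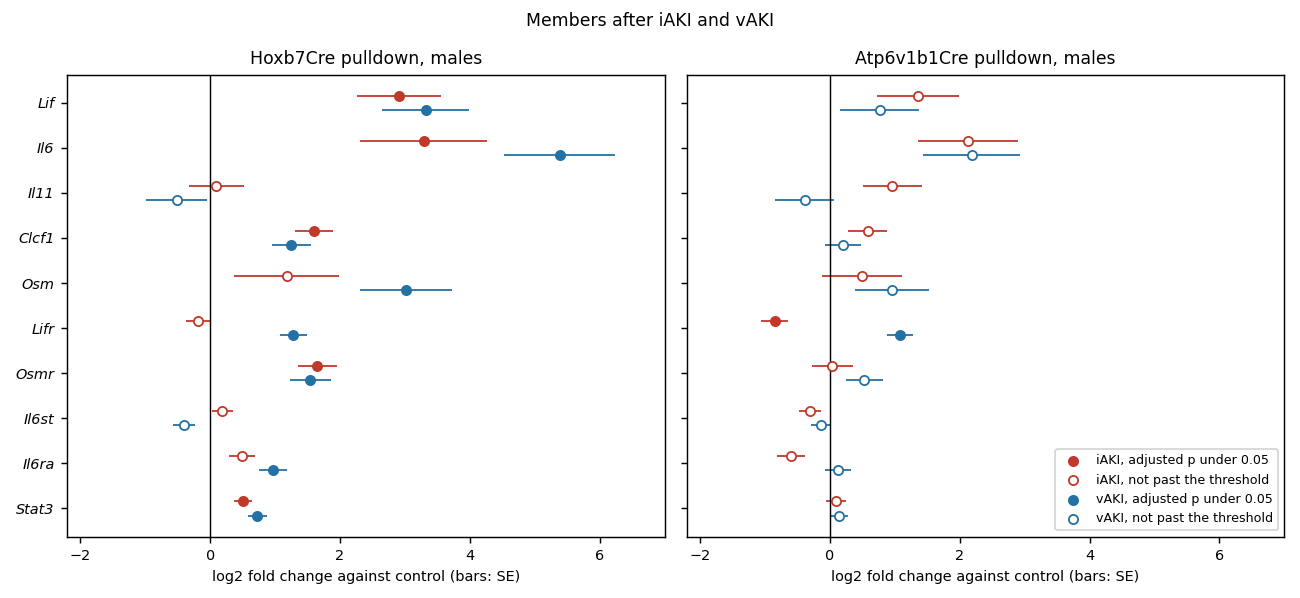
Log2 fold change against control (x axis; bars are SE) of each gene after iAKI and vAKI in male Hoxb7Cre and Atp6v1b1Cre pulldowns, with filled points where the adjusted p was under 0.05. In Hoxb7Cre 5 genes are filled after iAKI and 8 after vAKI, and in Atp6v1b1Cre only Lifr is filled, at -0.85 after iAKI and 1.08 after vAKI.

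Markers of other cells moved with some of these results. The summed stromal markers (Pdgfra, Pdgfrb, Col1a1, Col3a1, Dcn and Acta2) were at 44.2 to 98.3 CPM in male Hoxb7Cre controls, 116 to 283 CPM after iAKI and 108.2 to 147 CPM after vAKI, with 4 of 6 genes called higher after iAKI and 1 of 6 after vAKI. The highest stromal sum was that of iAKI replicate 5, the library in which Lif, Osmr, Il6ra and Clcf1 were highest, and its proximal tubule sum was 1343 CPM against 2430.4 to 2884 CPM in the other iAKI libraries. The part of stroma in the rise of Lif, Clcf1 and Osmr was not tested. The endothelial sum was at 96.8 to 181 CPM in controls, 177 to 218 after iAKI and 199 to 261 after vAKI, with 0 and 1 of 6 genes called higher. The leukocyte and macrophage sum was at 63.5 to 86.6, 79.6 to 94.5 and 88.2 to 109.6 CPM, with 0 of 8 genes called after iAKI and 3 called higher and 1 lower after vAKI. The neutrophil markers S100a8, S100a9, Mmp8 and Retnlg had at most 13 reads in any of these libraries, and the T cell markers Cd3e, Cd3g and Cd2 at most 13 reads. Csf3r, the other neutrophil marker tested, had 13 to 29 reads after iAKI, 3 to 23 in controls and 8 to 11 after vAKI. The neutrophil sum was at 0.328 to 1.22 CPM in controls, 1.31 to 3.07 after iAKI and 0.535 to 0.654 after vAKI, with 2 of 5 genes called higher after iAKI and 0 after vAKI, and its part in the iAKI values was not tested. The part of endothelium and macrophages in the vAKI values of Osm, Il6ra and the other ligands was not tested.

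In the Atp6v1b1Cre domain the receptor Lifr was the only member that passed after either injury, and it moved in opposite directions. It was at 348, 423, 425 and 539 CPM in controls. After iAKI it was at 220.4, 249 and 259 CPM, and after vAKI at 689.8, 781, 1028 and 1137 CPM. The 3 groups did not overlap. The log2 fold change was -0.85 (SE 0.21, adjusted p = 0.0168), under the fold threshold, after iAKI and 1.08 (SE 0.20, adjusted p = 0.00102), or 2.12-fold, after vAKI. The vAKI value fell just under the fold threshold without control replicate 6 (0.99, adjusted p = 0.00649) or vAKI replicate 7 (0.95, adjusted p = 0.00592). The proximal tubule sum of these libraries was at 1770.2 to 3568 CPM in controls, 823 to 1151 CPM after iAKI and 1079.9 to 4188 CPM after vAKI, and the intercalated sum at 727 to 980.4, 618.4 to 1598 and 476 to 629.8 CPM. Their part in the Lifr values was not tested. Of the 10 members 0 were called after iAKI, where 2.82% of all genes were called by edgeR's quasi-likelihood test and 5066 genes had an unadjusted p under 0.05, and DESeq2 also called 0 members. After vAKI 1 was called, where 5.15% of all genes were called. Of all genes 8.51% and 14.6% passed. The median log2 fold change of the members was 0.29 after iAKI and 0.37 after vAKI, beside 0 for all genes. Members without overlap between injured and control libraries were 2 after iAKI (Lifr and Il6st, both lower, where 20.6% of all genes did not overlap) and 2 after vAKI (Il6 and Lifr, both higher, where 14.5% did not).

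The ligands did not pass in this domain in the fit of males, whereas Lif, Il6 and Osm were called after vAKI in its females (below). Lif was at 1.21, 0.920, 0.848 and 2.14 CPM in controls, 0.932, 1.62 and 7.47 CPM after iAKI and 0.493, 1.99, 4.03 and 2.55 CPM after vAKI. The groups overlapped, with log2 fold changes of 1.36 (SE 0.63, adjusted p = 0.190) and 0.77 (SE 0.61, adjusted p = 0.444). Il6 had 8 reads over the controls (0 to 0.168 CPM), 28 over the iAKI libraries (0.251, 0.139 and 0.739 CPM) and 33 over the vAKI libraries (0.176, 0.298, 0.703 and 0.463 CPM). Its log2 fold change was 2.13 (SE 0.77, adjusted p = 0.0858) after iAKI and 2.18 (SE 0.74, adjusted p = 0.0501) after vAKI. The vAKI value lay at the threshold and passed without vAKI replicate 1 (2.46, adjusted p = 0.0233) and in DESeq2 (2.29, adjusted p = 0.0247). Clcf1 was at 7.96 to 16.4 CPM in controls, 13.4 to 26.6 after iAKI and 8.00 to 20.7 after vAKI, and Stat3 at 370.2 to 522, 403 to 577 and 430.2 to 543 CPM. For Stat3 the 95% intervals of the log2 fold change were -0.20 to 0.39 after iAKI and -0.13 to 0.42 after vAKI.

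The 6 Atp6v1b1Cre iAKI libraries of both sexes split by the numbers that the labels give to libraries. These numbers fall into 3 series, called A, B and C here, and the labels do not say what a series stands for. The 2 iAKI libraries of series B, male replicate 5 and female replicate 6, held Lif at 7.47 and 5.71 CPM, Il11 at 3.32 and 7.57, Clcf1 at 26.6 and 25.9 and Osmr at 64.2 and 83.1. The 4 of series A held Lif at 0.493 to 1.62 CPM, Il11 at 0.655 to 1.69, Clcf1 at 8.65 to 13.6 and Osmr at 24.1 to 30.9. The series B libraries were thus above those of series A in all 4 genes, whereas Lifr was at 220.4 to 278 CPM in all 6. Their stromal marker sums were 299 and 236 CPM against 153 to 200.2, and their intercalated sums 618.4 and 539.6 CPM against 1299 to 1885. Series and cell makeup cannot be told apart in these libraries. Among males of series A alone the iAKI log2 fold change of Lif was 0.22 (SE 0.72, adjusted p = 0.951), and without replicate 5 that of Lif was -0.03, of Il11 0.46, of Clcf1 0.20 and of Osmr -0.54. Within series A the vAKI value of Lifr was 0.93 (SE 0.24, adjusted p = 0.0248), below the fold threshold. Its iAKI value was -0.73 (SE 0.24, adjusted p = 0.0511) within that series.

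**Figure D4:**
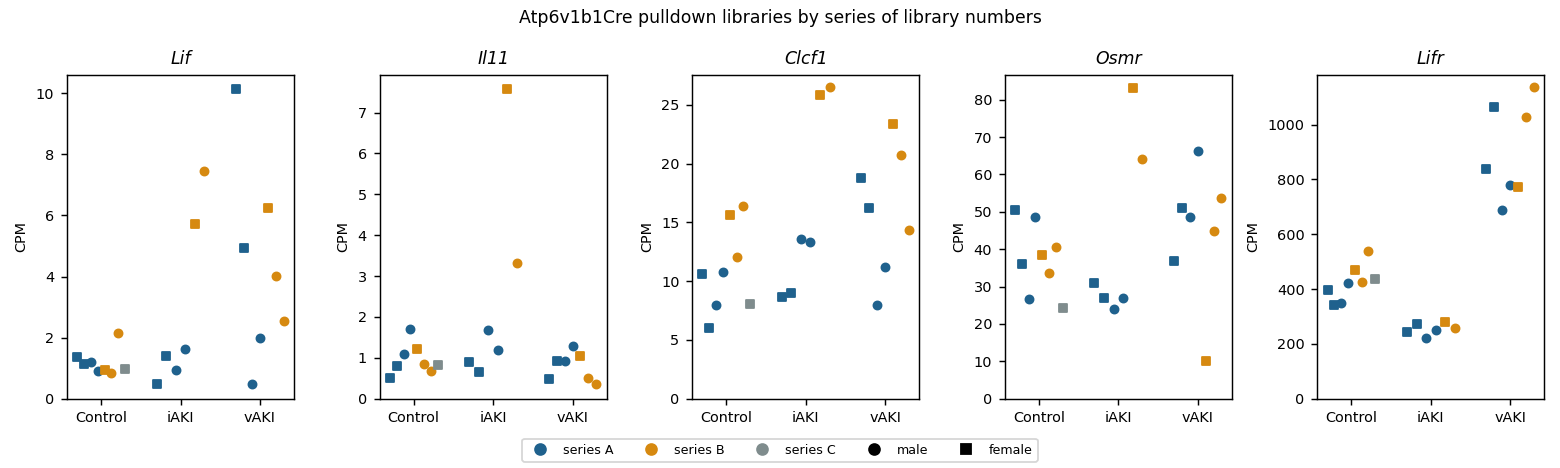
CPM of 5 genes in each Atp6v1b1Cre pulldown library of 5.5 months by treatment, coloured by the series of library numbers in the labels (A, B, C), with circles for males and squares for females. In iAKI the 2 libraries of series B are the highest for Lif, Il11, Clcf1 and Osmr, whereas Lifr is at 220.4 to 278 CPM in all 6.

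The injuries were next compared with each other. In Hoxb7Cre males 3 members were called between vAKI and iAKI, all higher in vAKI, where 14.7% of all genes were called. Lifr was higher by a log2 fold change of 1.46 (SE 0.21, adjusted p = 1.47e-05) and Il6 by 2.09 (SE 0.61, adjusted p = 0.0101). Osm was higher by 1.83 (SE 0.62, adjusted p = 0.0251), and did not pass without iAKI replicate 5, 6 or 7 or vAKI replicate 4, with adjusted p of 0.0578, 0.0547, 0.0718 and 0.106. Il6st was lower in vAKI, below the fold threshold (-0.59, SE 0.17, adjusted p = 0.0114), while for Lif (0.41, 95% interval -0.75 to 1.56), Clcf1 (-0.35, -0.94 to 0.24) and Osmr (-0.11, -0.72 to 0.50) the injuries did not differ detectably. In Atp6v1b1Cre, where 11.6% of all genes were called, Lifr was higher in vAKI by 1.93 (SE 0.22, adjusted p = 3.51e-06), and Il6ra passed at 0.73 (SE 0.22, adjusted p = 0.0147). Il11 was lower in vAKI by the test (-1.34, SE 0.46, adjusted p = 0.0313), but not without iAKI replicate 5 (-0.85, adjusted p = 0.212) or vAKI replicate 6 (-1.21, adjusted p = 0.0795) or 7 (-1.14, adjusted p = 0.0772). Without that iAKI library Osmr was called higher in vAKI (1.06, adjusted p = 0.0114).

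To ask whether the drivers responded differently, the log2 fold change in Hoxb7Cre was taken from that in Atp6v1b1Cre within the same fit. For iAKI 2 members were called, Osmr (-1.61, SE 0.43, adjusted p = 0.0252) and Il6ra (-1.09, SE 0.30, adjusted p = 0.0283), with smaller responses in Atp6v1b1Cre than in Hoxb7Cre, where 3.49% of all genes were called. Both rested on single libraries. Osmr missed the threshold without Hoxb7Cre iAKI replicate 5 (-1.20, adjusted p = 0.0545), Atp6v1b1Cre iAKI replicate 1 or 4 (adjusted p = 0.0970 and 0.0837), Hoxb7Cre control replicate 3 (adjusted p = 0.0586) or Atp6v1b1Cre control replicate 9 (adjusted p = 0.0588). Il6ra missed it without Hoxb7Cre iAKI replicate 5 (-0.81, adjusted p = 0.0694), Atp6v1b1Cre iAKI replicate 4 (adjusted p = 0.109), Hoxb7Cre control replicate 3 (adjusted p = 0.0548) or Atp6v1b1Cre control replicate 9 (adjusted p = 0.0592). Without Atp6v1b1Cre iAKI replicate 5, Lif (-2.92, adjusted p = 0.0298) and Clcf1 (-1.38, adjusted p = 0.0318) were called as well. For vAKI 0 members were called by edgeR's quasi-likelihood test or by DESeq2, where 2.93% of all genes were called and 3991 genes had an unadjusted p under 0.05. The ligands Lif, Il6 and Osm had differences of -2.55 (SE 0.91, adjusted p = 0.116), -3.20 (SE 1.31, adjusted p = 0.180) and -2.06 (SE 0.94, adjusted p = 0.233), and for Lifr the interval of the difference ran from -0.75 to 0.36. With library series as covariate edgeR's test called 556 of all genes higher and 859 lower, against 283 and 338 in the main fit. Among them were 4 members, with smaller responses in Atp6v1b1Cre. These were Lif (-3.20, adjusted p = 0.00996), Il6 (-3.80, 0.0456), Clcf1 (-1.45, 0.00195) and Osm (-2.79, 0.0228). In series A alone Lif and Clcf1 were called, where 930 of all genes were called higher and 955 lower.

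Other genes of the pathway followed unevenly, and their calls were not checked with single libraries left out. Among further ligands of the family, Il27, an interleukin 27 subunit, was called higher after vAKI in Hoxb7Cre (2.21, SE 0.78, adjusted p = 0.0312), with 13 reads at most in a library, and Ctf1 (cardiotrophin 1) lower (-1.13, SE 0.25, adjusted p = 0.00112). Of 5 further receptors, 4 were tested. Il31ra was called higher after vAKI in Hoxb7Cre (1.31, SE 0.49, adjusted p = 0.0417) and Il27ra lower after vAKI in Atp6v1b1Cre (-1.13, SE 0.35, adjusted p = 0.0323). The 4 genes for Janus kinases and SHP2 gave 0 calls in the 4 comparisons, and Jak1, the most abundant, was at 270.3 to 353 CPM in Hoxb7Cre controls, 296 to 370.4 CPM after iAKI and 347 to 408 CPM after vAKI. Among other STAT genes, Stat4 was called higher after vAKI in Hoxb7Cre (1.79, SE 0.33, adjusted p = 0.000229).

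Socs3, the feedback inhibitor, was at 0.920 to 3.80 CPM in Hoxb7Cre controls, 6.23 to 20.4 CPM after iAKI and 32.9 to 48.4 CPM after vAKI, and the groups did not overlap. Its log2 fold change was 2.20 (SE 0.57, adjusted p = 0.0238) after iAKI and 4.21 (SE 0.61, adjusted p = 1.59e-05) after vAKI. Of the 8 inhibitor genes listed, 2 were called after iAKI (Socs3 and Ptprt) and 3 after vAKI (Socs3, Socs1 and Ptpn1), all higher, where 2.3% and 16.4% of all genes were called. The median log2 fold change of the 8 was 0.15 and 0.69, beside 0 for all genes. In Atp6v1b1Cre 0 of the 8 were called after iAKI, where 2.82% of all genes were called by edgeR, and Cish (4.02, SE 0.39, adjusted p = 1.8e-06) and Socs3 (2.37, SE 0.54, adjusted p = 0.00576) were called higher after vAKI, where 5.15% were called.

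Among 25 genes listed as known STAT3 or IL-6 targets, 5 were called higher and 0 lower after iAKI in Hoxb7Cre, and 13 higher and 2 lower after vAKI, where 2.3% and 16.4% of all genes were called. In Atp6v1b1Cre 7 were called higher and 0 lower after iAKI, and 12 higher and 1 lower after vAKI, where 2.82% and 5.15% were called. The medians were 0.66, 1.22, 0.16 and 1.44 on the log2 scale, beside 0 for all genes in each. After iAKI they included Timp1 (3.35, SE 0.61), an inhibitor of metalloproteinases, and the acute phase genes Lrg1 (1.69, SE 0.31), Fgg (3.07, SE 0.66) and Lcn2 (2.78, SE 0.63) in Hoxb7Cre, and Fgg (5.11, SE 0.70), Lcn2 (4.41, SE 0.71), Fgb (5.07, SE 0.91) and Lrg1 (1.65, SE 0.32) in Atp6v1b1Cre. After vAKI they included Mcl1 (1.48, SE 0.17), a survival gene, Icam1 (2.98, SE 0.34), an adhesion molecule, the kinase gene Pim3 (3.45, SE 0.44) and the receptor gene Il4ra (1.22, SE 0.16) in Hoxb7Cre, and the immediate early genes Fos (2.91, SE 0.56) and Junb (2.40, SE 0.47), Icam1 (1.65, SE 0.32) and, lower, Ccnd1 (-1.31, SE 0.21) in Atp6v1b1Cre. After vAKI Lcn2 had log2 fold changes of 0.66 (adjusted p = 0.460) in Hoxb7Cre and 1.52 (adjusted p = 0.135) in Atp6v1b1Cre, and Timp1 of 1.27 (adjusted p = 0.184) and 0.29 (adjusted p = 0.839). Of 8 cytokines and growth factors listed as inducers of these ligands, 0 were called after iAKI in either driver. After vAKI Hbegf (3.22, SE 0.47), Il1b (2.43, SE 0.44) and Areg (2.95, SE 0.56) were called higher and Il1a lower (-1.96, SE 0.67) in Hoxb7Cre, and Areg (2.90, SE 0.52) and Hbegf (2.00, SE 0.44) higher in Atp6v1b1Cre.

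Female mice gave a different picture in the Hoxb7Cre domain. Their controls held Lif at 0.534, 3.14, 2.33 and 1.77 CPM, so that 3 of 4 were above every male control. Between female and male controls 0 members were called by edgeR's quasi-likelihood test, where 2.01% of all genes were called and 4250 genes had an unadjusted p under 0.05, and the log2 fold change of Lif was 1.54 (adjusted p = 0.270). DESeq2 called Clcf1 higher in female controls (1.13, adjusted p = 0.0399), and edgeR did so without female control replicate 1 (1.41, adjusted p = 0.00810). After iAKI Lif was at 1.23, 1.84 and 0.432 CPM, and after vAKI at 0.749, 2.20, 0.723 and 12.9 CPM. Neither injury separated from the controls. Of these controls replicate 1, listed first, was of series A, replicate 6 of series B and replicates 9 and 10 of series C. All injured Hoxb7Cre libraries were of series A, as were male controls 2 and 3, and male controls 4 and 5 were of series B. Series and injury thus cannot be told apart in these females, nor series and sex in the responses. Clcf1 was at 5.09, 22, 16.7 and 17.2 CPM in female controls and at 9.25, 7.61 and 4.81 CPM after iAKI, and Osmr at 16.0, 35.2, 25.4 and 27.8 CPM and then 24.6, 21.2 and 9.67 CPM. In females 1 member was called after iAKI, where 5.7% of all genes were called. This was Lifr, at 457, 494, 651 and 556 CPM in controls and 272, 225 and 218 CPM after iAKI (log2 fold change -1.20, SE 0.26, adjusted p = 0.00504), with every iAKI library below every control. It did not pass without iAKI replicate 3 (-1.14, adjusted p = 0.0555), whereas Clcf1 was called lower without control replicate 1 (-1.39, adjusted p = 0.00948) and in DESeq2 (-1.09, adjusted p = 0.0378). After vAKI 0 members were called in females, where 0.194% of all genes were called by edgeR's quasi-likelihood test and 2226 genes had an unadjusted p under 0.05, and DESeq2 also called 0 members.

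**Figure D5:**
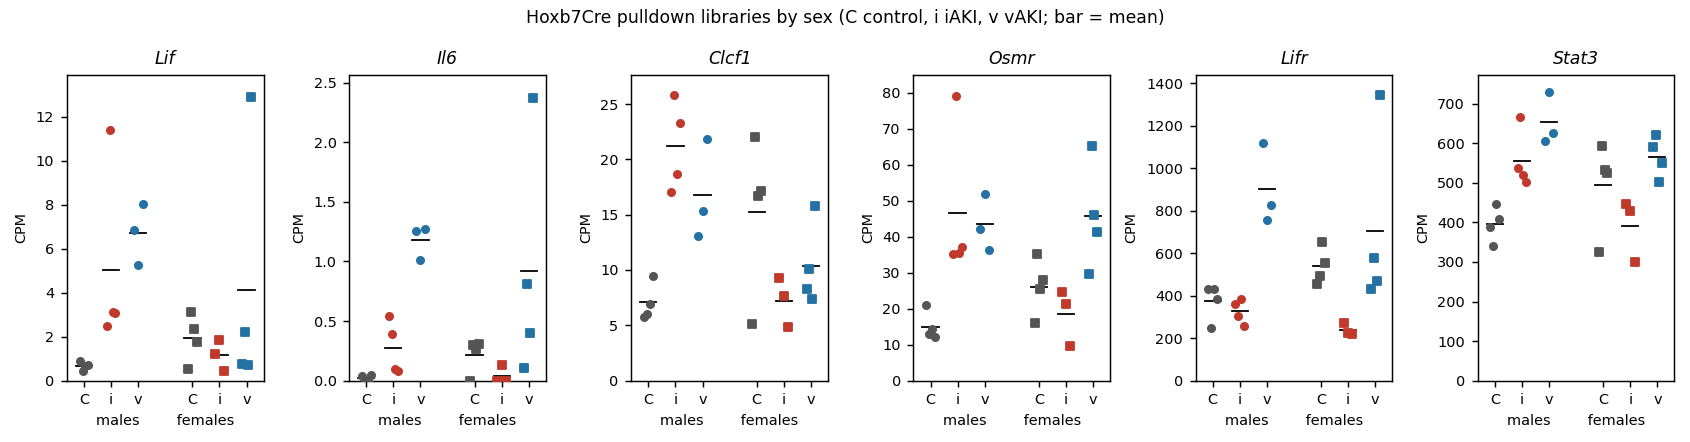
CPM of 6 genes in each Hoxb7Cre pulldown library of 5.5 months for control (C), iAKI (i) and vAKI (v), males as circles and females as squares, with bars at the means. After iAKI the males lie above their controls for Lif, Clcf1, Osmr and Stat3 and the females do not, and 1 female vAKI library stands apart with Lif at 12.9 and Lifr at 1343 CPM.

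The difference between the sexes was tested as female minus male log2 fold change in the 43 pulldowns of 5.5 months. After iAKI in Hoxb7Cre 5 members were called, all lower in females, where 6.98% of all genes were called and 4.77% called lower. These were Lif (-3.67, SE 1.16, adjusted p = 0.0369), Il6 (-5.62, SE 1.8, adjusted p = 0.0400), Clcf1 (-2.69, SE 0.55, adjusted p = 0.00538), Osmr (-2.16, SE 0.57, adjusted p = 0.0167) and Il6ra (-1.24, SE 0.34, adjusted p = 0.0204). The median of the members was -1.12 beside -0.03 for all genes, and Stat3 passed at -0.85 (SE 0.25, adjusted p = 0.0276). Only Clcf1 was called whichever of the 15 control and iAKI libraries was left out. Without 1 library the adjusted p reached 0.143 for Lif, 0.136 for Il6, 0.0941 for Osmr and 0.110 for Il6ra, in each case without female iAKI replicate 3. Without male iAKI replicate 5 the differences were -2.88 for Lif (adjusted p = 0.108), -5.39 for Il6 (adjusted p = 0.0683) and for Il6ra just under the fold threshold (adjusted p = 0.0579). Lif also missed the threshold without iAKI replicate 1 or control replicates 3, 6, 9 or 10, Il6ra without control replicate 10, and Il6 without iAKI replicates 1 or 4 or control replicates 2, 3, 4, 6, 9 or 10. Lifr was called too without iAKI replicate 7 or control replicate 1, and Stat3 without control replicate 1.

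After vAKI in Hoxb7Cre Clcf1 was the only member called as differing between the sexes (-1.82, SE 0.53, adjusted p = 0.0199), where 10.8% of all genes were called, and it missed the threshold without vAKI replicate 1, 3 or 7 or control replicate 6 (adjusted p = 0.0516, 0.0542, 0.0673 and 0.0598). Female vAKI replicate 5 decided the others. It held Lif at 12.9, Lifr at 1343 and Osm at 0.534 CPM, against 0.723 to 2.20, 429.7 to 579 and 0.0450 to 0.121 CPM in the other 3 female vAKI libraries, and its principal cell sum was 1154 CPM. Without it Lif (-3.99, adjusted p = 0.00296), Il6 (-4.37, adjusted p = 0.0156) and Lifr (-1.41, adjusted p = 0.000248) were called lower in females together with Clcf1. Il6 was also called without control replicate 1, and Il6ra without control replicate 6. Principal cell sums moved with these results. They were at 1104 to 2434 CPM in female controls, 1438 to 2854 CPM after iAKI and 1154 to 2109.8 CPM after vAKI, against 2694 to 3439, 1005 to 1254 and 1110 to 1213 CPM in males. The part of this and of library series in the sex difference was not tested.

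In Atp6v1b1Cre 0 members and 0% of all genes were called as differing between the sexes after iAKI or vAKI by edgeR's quasi-likelihood test, with 676 and 1756 genes at an unadjusted p under 0.05, and DESeq2 called 0 members in both. Females of this driver had Lif at 1.36, 1.13, 0.952 and 0.958 CPM in controls and at 10.1, 4.94 and 6.23 CPM after vAKI, without overlap. After vAKI 4 members were called in these females, all higher, where 11.8% of all genes were called. These were Lif (2.69, SE 0.79, adjusted p = 0.0108), Il6 (3.28, SE 0.86, adjusted p = 0.00462), Osm (2.04, SE 0.66, adjusted p = 0.0199) and Lifr (1.13, SE 0.25, adjusted p = 0.00131). Lif did not pass without vAKI replicate 3 (2.34, adjusted p = 0.0549), nor did Osm without that library (1.46, adjusted p = 0.178) or control replicate 7 (1.79, adjusted p = 0.0596) or 8 (1.91, adjusted p = 0.0572), and Lifr fell just under the fold threshold without vAKI replicate 4 (0.98, adjusted p = 0.0120). Clcf1 was called too without control replicate 12 (1.25, adjusted p = 0.0247) and in DESeq2 (1.01, adjusted p = 0.0404). Replicate 5 of vAKI stood apart in makeup, with 28.6 CPM of stromal, 30.0 CPM of endothelial and 32.3 CPM of podocyte markers against 137 and 161, 154 and 189, and 151 and 176 CPM in replicates 3 and 4, and it held Osmr at 9.99 CPM against 36.9 and 50.9 CPM. Without it the 4 calls stood, at 2.77 for Lif, 3.50 for Il6, 2.15 for Osm and 1.23 for Lifr (adjusted p = 0.0186, 0.00611, 0.0302 and 0.00227). The intercalated sum was at 482 to 742 CPM after vAKI and 879 to 1333 CPM in their controls, and its part in these values was not tested. Lifr was at 395, 341, 469 and 435 CPM in their controls and at 839, 1063 and 774 CPM after vAKI, so that Lifr rose after vAKI in males of both drivers and in females of Atp6v1b1Cre. After iAKI in these females Il11 was called (1.81, SE 0.54, adjusted p = 0.0294), where 2.59% of all genes were called, with 7.57 CPM in replicate 6 of series B and 0.893 and 0.655 CPM in the other 2. Without replicate 6 the log2 fold change was -0.13 (adjusted p = 0.933), so the call rested on that library, and it was also lost without control replicate 7, 8 or 13 (adjusted p = 0.105, 0.0523 and 0.0556).

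Over the 43 pulldowns of 5.5 months, the genes of most similar pattern were named by Pearson's r of log2 CPM among 13929 genes, as a description over libraries that share treatments and depth. For Lif they were Birc3 (r = 0.87), Egr2 (0.86) and Socs3 (0.86), and for Lifr they were Arih2 (0.96), Jade1 (0.96) and Dyrk1a (0.95). For Osmr they were Pcdh18 (0.87), Calcrl (0.86) and Rhoj (0.86), and for Clcf1 they were Ddias (0.88), Ankrd1 (0.86) and Lmnb1 (0.84). Among the members themselves, after the mean of each group was taken off, Lif went with Il6 (r = 0.77) and Clcf1 (0.76) and Clcf1 with Stat3 (0.75), and Clcf1 went against Il6st (-0.72).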

How the data were processed

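RNA-seq libraries of 4-thiouracil tagged pulldown RNA and of total kidney RNA were analysed from raw counts per gene symbol, which the authors deposited without normalization. Per the submitters' processing notes and the study's methods, bases were called and adaptors trimmed with CASAVA 1.8.2, low-quality ends trimmed with Trimmomatic 0.36, and reads aligned to mm10 with STAR 2.5.3a and counted with HTSeq 0.6.1p2 at default settings, which leaves out reads that align to more than 1 place. The annotation behind the symbols is not given in the sources used here. Reads of overlapping genes are therefore uncertain. Gene positions and union exon lengths are those of GENCODE M21 (GRCm38).

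Groups, sexes, ages and numbers came from the labels. After a filter of 2 reads summed over the 69 libraries, 21175 of 24411 genes were tested in R 4.3.3 with edgeR 4.0.16 (TMM, quasi-likelihood test, Benjamini-Hochberg over all genes tested) and limma 3.58.1, and a gene was called when its adjusted p was below 0.05 and its level changed by 1 or more on the log2 scale. Injury was fitted in 22 male pulldowns of 5.5 months, since the study presented males, pulldown against total RNA in 42 control libraries with sex as covariate, and the difference between sexes in 43 pulldowns. CPM printed are scaled by TMM over the 69 libraries, and log2 CPM use a prior count of 2. The depth of 12618062 to 30305464 counts limits Il6 and Osm, which had few reads, and intervals of their ratios (95%, exact) cover counting error only. Scripts were tested on simulated counts.

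The members and the gene lists were chosen with earlier results of these data known. All 10 members are named, and of each pathway list up to 4 called genes of smallest adjusted p, or the most abundant gene where none was called; further genes of the lists were named after their values were seen. Alternatives were DESeq2 1.42.0, its size factors in edgeR, other filters, no fold threshold, other sets of libraries, series of library numbers, the replicate number as block, and each library left out in turn. Series A alone, and DESeq2 and each library left out for females against their own controls and for female against male controls, were added after the data were seen. Same-numbered libraries did not deviate together (mean r of deviations -0.11 over 6 pairs in Hoxb7Cre and -0.13 over 2 in Atp6v1b1Cre), and the labels do not tie the numbers to mice, so no pairing was used. Total RNA and pulldowns of controls may come from the same mice and were taken as independent. By driver, sex, age and series the labels of the total RNA libraries match those of the control pulldowns. No fit paired libraries by that match. RefSeq windows for Clcf1 and Osm were not used here. Results of some genes of the pathway lists are not reported here.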

Additional observations from a re-analysis of the deposited data

Results flagged for a closer look

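Some single libraries lay far from the others of their group by Dixon's test at the 95% level. Chance gives about 1 such value in 20 groups, and 9 of 70 groups of a member held one. In Hoxb7Cre males replicate 5 of iAKI was high for Lif at 11.4 CPM, Osmr at 79.1 CPM and Il6ra at 18.5 CPM, and replicate 4 of iAKI for Osm at 0.198 CPM. In Hoxb7Cre females replicate 5 of vAKI was high for Lif at 12.9 CPM, Osm at 0.534 CPM and Lifr at 1343 CPM. Among female Hoxb7Cre controls Il6 was low at 0 CPM in replicate 1 and Osm high at 0.112 CPM in replicate 6, values of few reads.

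Responses that differed between groups by a test of the difference itself were of 2 kinds. Between the sexes (female minus male log2 fold change after iAKI in Hoxb7Cre) these were Lif at -3.67, Il6 at -5.62, Clcf1 at -2.69, Osmr at -2.16 and Il6ra at -1.24, and after vAKI Clcf1 at -1.82. Between the drivers (Atp6v1b1Cre minus Hoxb7Cre after iAKI in males) these were Osmr at -1.61 and Il6ra at -1.09. The part of cell makeup in these differences was not tested, nor was that of library series in those between the sexes.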

How the results depend on the processing

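Over 4044 combinations of a member, a comparison and an alternative, 3836 kept their side of the thresholds (3664 with the same sign), 92 gained a call, 8 called values changed sign, and the others lost a call. Another 172 changed sign without a call in either fit, 99 of them with 1 library left out and 29 in females alone, Stat3 (-0.33) and Il6ra (-0.74) after iAKI in Hoxb7Cre among the latter. Of the 8, 7 came from the females alone: after iAKI in Hoxb7Cre Lif -0.74, Il6 -2.31, Clcf1 -1.07 and Osmr -0.49, after vAKI in Hoxb7Cre Clcf1 -0.56, and in the driver difference after iAKI Osmr 0.80 and Il6ra 0.076. The other was Il11 after iAKI in Atp6v1b1Cre females, at -0.13 to 2.29 with 1 library left out. The cause was not tested.

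Changes in the number of members called beyond 1.5 times were as follows, with smaller changes given for Hoxb7Cre against control. Pairs of numbers in brackets are all genes called higher and lower in that fit. After iAKI in Hoxb7Cre (4) both sexes with sex as covariate gave 0, females only 1, no fold threshold 5, and no filter, only the groups compared and series A only each 3, where Il6 was lost (in series A 3.31, adjusted p = 0.0916). After vAKI in Hoxb7Cre (6) females only gave 0 (8 and 13), both sexes 4 (616 and 349) and no fold threshold 8 (3797 and 3724). After iAKI in Atp6v1b1Cre (0) no fold threshold (799 and 1004), 25 males (327 and 391), both sexes (351 and 474) and series as covariate (310 and 421) each gave 1. After vAKI in Atp6v1b1Cre (1) DESeq2 (799 and 401), its size factors (737 and 367), filterByExpr (725 and 372), 25 males (862 and 429) and series as covariate (852 and 447) each gave 2. Both sexes gave 4 (1441 and 577), females only 3 (1335 and 760) and series A only 0 (488 and 173). Between vAKI and iAKI females only gave 1 (391 and 162) in Hoxb7Cre (3), and in Atp6v1b1Cre (2) a fit of only the groups compared gave 1 (1170 and 705). For the driver difference after iAKI (2) 25 males gave 1 (418 and 407), both sexes 0 (76 and 71) and females only 0 (0 and 0). With 0 of all genes called, that fit of females says nothing about the members in particular. For the driver difference after vAKI (0) only the groups compared gave 1 (211 and 295), series as covariate 4 (556 and 859) and series A only 2 (930 and 955). Against total RNA, Hoxb7Cre (2) gave 7 with no fold threshold (7528 and 6585), 1 in males (2727 and 3786) and 4 in females (2649 and 3544). Atp6v1b1Cre (4) gave 8 with no fold threshold (7281 and 6230) and 0 in females (1567 and 3162). Between the control pulldowns (1) no fold threshold gave 3 (1213 and 890), filterByExpr 0 (439 and 232), males 2 (656 and 382) and females 0 (277 and 135). For females against their own controls DESeq2 gave 2 (367 and 1017) after iAKI in Hoxb7Cre (1), and it gave 1 (415 and 229) for female against male Hoxb7Cre controls (0).

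With the replicate block (7 residual degrees of freedom against 16), although numbers do not pair the libraries, 3 members were called after iAKI in Hoxb7Cre, without Il6 (2.96, adjusted p = 0.132), and 6 after vAKI, without Osm (2.69, adjusted p = 0.0515) and with Il6ra (1.21, adjusted p = 0.00343). There were 2 after vAKI in Atp6v1b1Cre (1315 and 913 of all genes called higher and lower) and 1 between vAKI and iAKI in Atp6v1b1Cre (1381 and 845). For the driver difference after iAKI 0 members and 0 of all genes were called. There were 2 for Atp6v1b1Cre against total RNA (1871 and 3288) and 0 between control pulldowns (542 and 481), without Osm (1.62, adjusted p = 0.218). Leaving out 1 library at a time gave 2 to 4 members after iAKI and 6 to 7 after vAKI in Hoxb7Cre, 0 to 0 and 0 to 2 in Atp6v1b1Cre, 2 to 3 and 1 to 2 between the injuries, 0 to 4 and 0 to 0 for the driver differences, 2 to 3, 2 to 6 and 1 to 1 in the control comparisons, and 1 to 7 and 0 to 4 for the sexes in Hoxb7Cre, 0 to 0 in Atp6v1b1Cre. In females alone it gave 0 to 2 and 0 to 0 in Hoxb7Cre, 0 to 1 and 2 to 5 in Atp6v1b1Cre, and 0 to 1 between Hoxb7Cre controls of the sexes. Depth limits Il6 and Osm, with 2 and 4 reads over the male Hoxb7Cre controls. Groups of 3 or 4 libraries limit the rest.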
